A study of Mus musculus with 23 samples.

Results

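The KHR-N+/- oral tumours, which the labels give 1 copy of Notch1, were set against KHR tumours of the same type with intact Notch1, across all genes detected on the array. The members were taken from the group label of each tumour, and made up 9 of the 23 tumours of the series (4 KHR-N+/- and 5 KHR). The mice were C57BL/6, each tumour had 21 days of growth, and each was put on 1 Illumina MouseRef-8 v2 array, which reads the RNA of a gene as the brightness of beads that carry a probe for it. Levels of 5 KHR-N-/- tumours, the same type with no copy of Notch1, are given beside them where they help to place a value. The codes KHR and KR are not expanded in the labels, and neither the promoter or Cre behind the Notch1 alleles nor the alleles that both groups share are given in the sources used here. Replicates are numbered within a group with no word on which animal each tumour came from. The p-values therefore reflect variation among tumours, which may include tumours of 1 animal. The spread behind them was pooled over all 5 groups of the series, which also hold KR-N+/- and KR-N-/- tumours.

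Notch1 is a receptor on the cell surface. When a ligand of the Jagged or Delta family on a neighbouring cell binds it, ADAM proteases and then gamma-secretase cut it, and the freed intracellular domain enters the nucleus and joins the DNA-binding protein RBPJ to switch on genes of the Hes and Hey families. In stratified epithelia such as the lining of the mouth, Notch signalling is known for moving keratinocytes out of the basal layer into differentiation, and in squamous tumours the gene often acts as a tumour suppressor.

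RBPJ binds the letters GTGGGAA or the reverse complement TTCCCAC, with TGGGAA at the core. These letters were searched on both strands of the RefSeq promoters (build GRCm38.p6), which run from 250 bases before to 50 bases after a gene's start. Of all 32851 promoters, 6.38% held GTGGGAA and 25.6% held TGGGAA, where the shorter motif also counts each match of the longer one. Counts are given by gene, since a gene can have several overlapping promoter windows. Only genes with a promoter in this set could be searched: 77 of the 80 genes higher in KHR-N+/- tumours, 31 of the 42 lower and 7888 of the 9732 tested. Among these, GTGGGAA was found for 5 of 77 genes higher in KHR-N+/- tumours and for 6 of 31 genes lower in them, against 576 of 7888 genes tested. TGGGAA was found for 15 of 77 genes higher and 10 of 31 genes lower, against 2154 of 7888 genes tested. The promoters of Rbp7 (chr4:149454919-149455218, minus strand), among the genes higher in KHR-N+/- tumours, and of Wfdc2 (chr2:164562465-164562764, plus strand) and Tmem87a (chr2:120404067-120404366, minus strand), among the genes lower, are shown as examples of named genes that hold it, 5′ to 3′ along the gene, with the match in capitals. A match describes the letters only. The promoter of Notch1 held neither motif.
Rbp7: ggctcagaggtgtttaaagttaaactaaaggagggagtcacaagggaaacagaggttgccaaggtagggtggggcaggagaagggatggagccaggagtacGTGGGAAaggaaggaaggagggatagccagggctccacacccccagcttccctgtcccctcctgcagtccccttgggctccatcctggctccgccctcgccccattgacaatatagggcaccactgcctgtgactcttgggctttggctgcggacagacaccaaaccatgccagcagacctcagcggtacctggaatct
Wfdc2: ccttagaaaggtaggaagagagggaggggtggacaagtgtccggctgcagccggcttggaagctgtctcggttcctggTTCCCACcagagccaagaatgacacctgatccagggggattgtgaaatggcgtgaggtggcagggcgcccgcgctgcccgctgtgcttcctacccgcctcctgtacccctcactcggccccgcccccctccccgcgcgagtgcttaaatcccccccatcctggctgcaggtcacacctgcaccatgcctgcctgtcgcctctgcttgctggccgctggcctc
Tmem87a: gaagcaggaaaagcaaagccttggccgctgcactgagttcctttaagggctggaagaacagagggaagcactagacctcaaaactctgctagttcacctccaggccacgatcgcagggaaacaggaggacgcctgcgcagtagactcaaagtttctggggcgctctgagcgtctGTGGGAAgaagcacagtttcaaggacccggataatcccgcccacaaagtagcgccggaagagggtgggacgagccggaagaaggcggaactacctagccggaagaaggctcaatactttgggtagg

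Mean raw intensity of the 9 arrays lay between 204 and 366, between 11218 and 12627 probes were detected, 27.0 to 40.0 beads stood behind a probe on average, and any pair of arrays correlated at 0.944 to 0.993. Detected probes averaged 12360.5 ± 244 in KHR-N+/- tumours and 11779 ± 540 in KHR tumours (SD, n = 4 and 5), a difference that did not pass an exact two-sided permutation test (p = 0.0952). Mean intensity, at 311 ± 37.4 and 261 ± 46.5 (exact permutation p = 0.175), did not pass either. A pair of KHR tumours stood apart from the rest. On the first principal component, which held 33.8% of the variance, KHR replicate 4 lay at -40.5 and KHR replicate 5 at 24.3, against -7.71 to 12.5 for the other arrays. The epithelial markers Krt5, Krt14, Trp63 and Cdh1, measured out of 5 listed, differed by -0.13 to 0.05 on the log2 scale, and none passed the test. Normalized log2 intensities are used from here on, and a difference of 1 is a doubling of the signal.

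Notch1 itself was lower in KHR-N+/- tumours. Notch1 (chromosome 2) read 6.60, 7.52, 5.68 and 7.40 in KHR-N+/- tumours, 5.80, 5.77, 5.72, 5.40 and 5.68 in KHR-N-/- tumours, and 8.15, 7.81, 8.05, 8.66 and 8.67 in KHR tumours. All 4 KHR-N+/- tumours lay below all 5 KHR tumours, but the library labelled KHR-N+/- replicate 3 lay inside the KHR-N-/- range and the other 3 lay between the groups. The Notch1 level of that library goes against its label, and whether it carries 1 copy was not tested. In mean levels of gene lists this library went both ways. The 3 measured melanocyte markers averaged 4.94 in it, against 4.19 to 4.25 in the other KHR-N+/- tumours. That list ran from 4.70 to 5.13 in KHR-N-/- tumours and from 4.17 to 4.44 in KHR tumours. The matrix protease (6.70) and stefin (9.68) lists also lay inside the KHR-N-/- range and above the other KHR-N+/- tumours. The fibroblast (7.12), skeletal muscle (6.91) and mast cell (4.93) lists lay among the other KHR-N+/- tumours and below the KHR-N-/- range. Other KHR-N+/- tumours also entered that range: replicate 1 for stefins (9.33) and mast cells (5.01), and replicate 2 for skeletal muscle (7.22). A place inside the KHR-N-/- range thus does not single out replicate 3 in these lists. The Notch1 log2 difference was -1.47 (SE 0.27, limma adjusted p = 0.0066), a 2.76-fold lower level. Without KHR-N+/- replicate 3 it was -1.09 (adjusted p = 0.0328). Whether the probe lies outside the deleted part of the gene was not analysed here. In RNA from whole tumours, fewer cells of a type and less RNA per cell cannot be told apart.

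**Figure D1:**
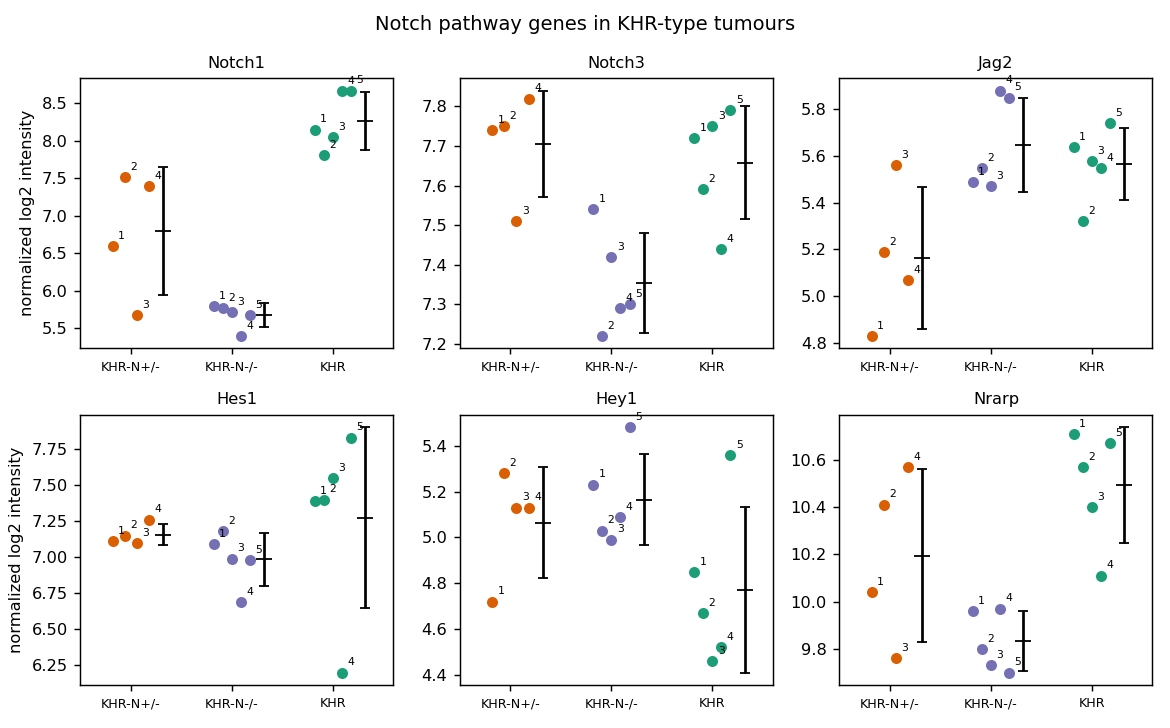
Normalized log2 intensity (y axis) of Notch1 and 5 other Notch pathway genes in KHR-N+/-, KHR-N-/- and KHR tumours, one point per array numbered by replicate, with the mean and SD as a bar at the right of each group. Notch1 falls to 5.68 in KHR-N+/- replicate 3, and Hes1 reads 6.20 in KHR replicate 4.

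The rest of the Notch pathway did not pass the test. Among the receptors, 3 of 4 were measured, and Notch3 (log2 difference 0.05, adjusted p = 0.92) and Notch4 (-0.27, adjusted p = 0.798) did not pass. None of the 3 measured ligands passed, with Jag2 at -0.41 (adjusted p = 0.252) and Jag1 at -0.28. Of 29 measured genes for processing the receptor and for its nuclear partners, none passed, with a median of 0.05 and a range between -0.40 for Adam17, a protease that can cut the receptor, and 0.32 for Aph1a, a gamma-secretase subunit. Adam17 passed, as lower, in the fit without KHR replicate 5. Of 9 measured Notch target genes none passed, with a median of 0.03. Hes1, a transcriptional repressor, differed by -0.12 (adjusted p = 0.906), and its KHR values included 6.20 in replicate 4. Nrarp, a feedback inhibitor, differed by -0.30, and Ccnd1, a D cyclin, by -0.73 (adjusted p = 0.225). A p that misses the threshold does not show that these genes stayed level.

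Across all 9732 genes tested, 122 passed an adjusted p of 0.05 (1.25% of those tested), 80 of them higher in KHR-N+/- tumours (0.822%) and 42 lower (0.432%). The fit took the spread from all 23 arrays, and not from the compared groups alone. KHR tumours varied more among themselves than KHR-N+/- tumours. The mean correlation of an array with its own group was 0.955 to 0.981 in KHR and 0.982 to 0.989 in KHR-N+/-. With the 9 arrays alone 0 genes passed (801 at an unadjusted p under 0.05, limma), and with array weights 891 passed. Of the 122, 29 differed by at least 1 on the log2 scale, 18 higher and 11 lower. The groups did not overlap at all for 330 genes (3.39% of those tested), 86 of them among the 122. The median log2 difference of all genes was 0.0031. Leaving out 1 array moved the count from 122 to between 41, without KHR-N+/- replicate 3, and 254, without KHR replicate 5, and 33 of the 122 genes passed in all 9 such fits.

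**Figure D2:**
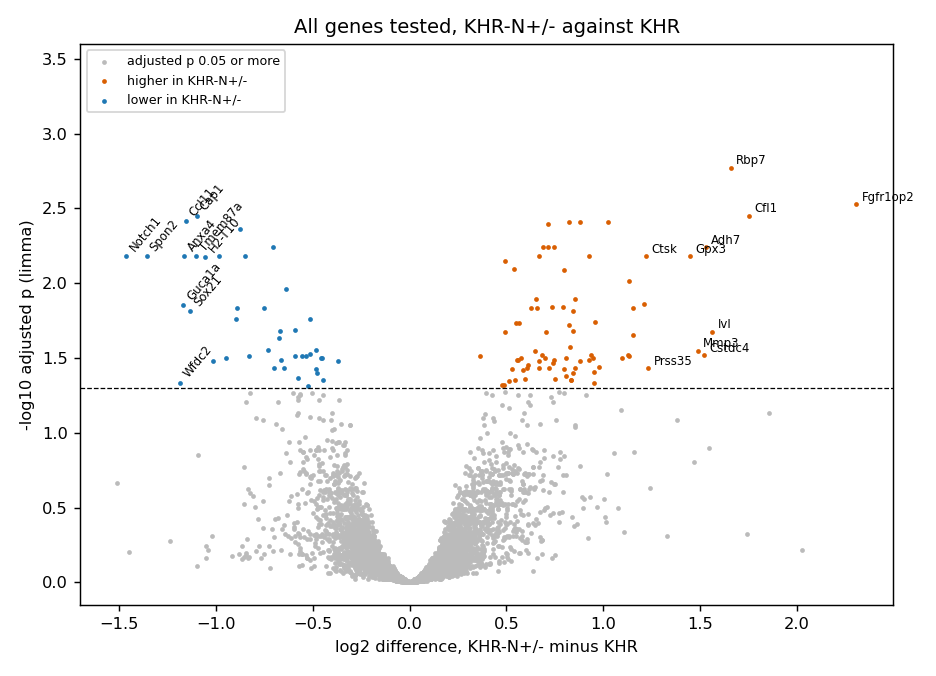
Log2 difference (KHR-N+/- minus KHR, x axis) against -log10 of the limma adjusted p (y axis) for each of the 9732 genes tested. Orange points are the 80 genes higher in KHR-N+/- tumours, blue points the 42 genes lower, and the dashed line marks an adjusted p of 0.05.

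A retinoid carrier and a retinol-oxidising enzyme were higher in KHR-N+/- tumours. Rbp7, a retinol-binding protein of the cytosol, read 7.09, 7.69, 7.95 and 7.43 in KHR-N+/- tumours, against 5.59, 5.47, 5.35, 6.44 and 6.54 in KHR tumours. Each KHR-N+/- tumour was above each KHR tumour, and the log2 difference of 1.66 (SE 0.23) had an adjusted p of 0.00168, the smallest of all genes. Adh7, an alcohol dehydrogenase that oxidises retinol, read 12.04, 11.85, 11.63 and 11.82 in KHR-N+/- tumours, against 10.07, 9.79, 9.61, 11.35 and 10.70 in KHR tumours. The groups did not overlap, with KHR replicate 4 the nearest of the KHR tumours, and the log2 difference was 1.53 (SE 0.27, adjusted p = 0.00575). In KHR-N-/- tumours the log2 difference from the same KHR tumours was 1.76 for Rbp7 and 1.34 for Adh7. Of 18 measured retinoid genes, these 2 were higher, none was lower, and the median was 0.06. The mean level of the list was 6.74 to 6.83 in KHR-N+/- tumours, 6.58 to 6.67 in KHR-N-/- tumours and 6.42 to 6.69 in KHR tumours. That mean includes Rbp7 and Adh7, so it says little about the other retinoid genes.

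Proteases of the extracellular matrix were higher in part. Ctsk, the collagen-degrading cathepsin of osteoclasts and fibroblasts, read 7.57, 7.84, 8.19 and 7.86 in KHR-N+/- tumours, against 6.37, 6.12, 6.41, 6.89 and 7.44 in KHR tumours. The groups did not overlap, and the log2 difference was 1.22 (SE 0.22, adjusted p = 0.0066). Mmp3, a stromelysin, read 7.31, 7.45, 8.63 and 7.35 in KHR-N+/- tumours, against 6.17, 5.39, 5.82, 6.43 and 7.15 in KHR tumours. Its log2 difference was 1.49 (SE 0.34, adjusted p = 0.0282), with KHR-N+/- replicate 3 far above the other 3 and no overlap between the groups. Other Mmp3 probes gave 0.86 and 1.32 and did not pass (limma adjusted p = 0.205 and 0.144). Prss35, a member of the serine protease family by its name, had a log2 difference of 1.23 (adjusted p = 0.037) and overlapped KHR only at replicate 5. Of 26 measured matrix proteases and their inhibitors, these 3 were higher and none was lower, with a median of 0.12. Collagenase Mmp13 differed by 1.86 (adjusted p = 0.0737) and gelatinase Mmp9 by 1.01 (adjusted p = 0.396), and neither passed, though Mmp13 passed as higher without KHR replicate 5. With the muscle level as a term, and also with the authors' values, Ctsk alone passed in the list, and with median scaling none did. Mmp3 did not pass without KHR replicate 1, 2 or 3 or KHR-N+/- replicate 2 or 3 (1.17 to 1.57, adjusted p up to 0.143), and Prss35 lost its call on leaving out any 1 of these or KHR-N+/- replicate 4 (1.06 to 1.22, adjusted p up to 0.181). Of the list, only Ctsk passed without KHR-N+/- replicate 3.

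The lists of the cornified layer and of its protease inhibitors gave single calls. Ivl, involucrin, a protein of the cornified envelope, read 10.46, 9.31, 10.47 and 8.76 in KHR-N+/- tumours, against 7.82, 7.93, 9.07, 8.72 and 7.40 in KHR tumours. Some values overlapped, since KHR replicate 3 lay above KHR-N+/- replicate 4, and the log2 difference was 1.56 (SE 0.34, adjusted p = 0.021). Of 35 measured suprabasal and cornified envelope genes Ivl alone passed, the median was 0.05, and keratin Krt4 (1.11, adjusted p = 0.458) and keratin Krt76 (2.03, adjusted p = 0.608) did not. Of 14 measured basal keratinocyte genes none passed, with a median of -0.04. Calm4, outside these lists, was higher by 0.49 (limma adjusted p = 0.00705) and passed in all 9 fits that left out 1 array. Cstdc4, a cysteine protease inhibitor of the stefin A cluster, read 6.59, 7.01, 8.27 and 6.51 in KHR-N+/- tumours, against 4.91, 5.55, 5.48, 5.25 and 6.66 in KHR tumours. It overlapped only at KHR replicate 5 and had a log2 difference of 1.52 (SE 0.35, adjusted p = 0.0303). The 9 measured stefins and cystatins had a median of 0.50, and Csta2 at 1.38 (adjusted p = 0.0824) did not pass. Ivl did not pass without KHR replicate 1 or 2 or KHR-N+/- replicate 1 or 3 (log2 difference down to 1.32, adjusted p up to 0.113), and Csta2 passed without KHR replicate 5. Cstdc4 did not pass without KHR replicate 1, 2 or 3 or KHR-N+/- replicate 2 or 3 (1.13 to 1.55, adjusted p up to 0.149). Neither Ivl nor Cstdc4 passed with median scaling (adjusted p = 0.0812 and 0.0781), with the authors' values (0.0546 for each) or with the muscle level as a term (0.0849 and 0.0569). The stefins are near-identical copies, so a probe may read more than one of them. The 13 measured hair keratins and associated proteins all lay below 0, with a median of -0.78, and none passed (Krt71 at -1.05, adjusted p = 0.57), with levels of 4.85 to 5.78 in KHR-N+/- tumours and 4.64 to 6.69 in KHR tumours.

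Redox and stress enzymes moved both ways. Gpx3, a secreted glutathione peroxidase, read 6.59, 7.52, 7.33 and 7.19 in KHR-N+/- tumours, against 5.92, 5.38, 5.02, 5.35 and 6.87 in KHR tumours. KHR replicate 5 alone reached into the KHR-N+/- range, and the log2 difference was 1.45 (SE 0.27, adjusted p = 0.0066). Gsta3, a glutathione transferase, was higher by 0.83 (adjusted p = 0.0446) and Slc7a11, the cystine importer that feeds glutathione synthesis, by 0.75 (adjusted p = 0.0328). Sod1, the cytosolic superoxide dismutase, was lower, at -0.49 (SE 0.11, adjusted p = 0.0278). Of the 24 measured genes of the list these 3 were higher and 1 lower, with a median of 0.03. Sod1 lost its call when any 1 of the KHR-N+/- tumours was left out (-0.53 to -0.43, adjusted p up to 0.0901). Gsta3 (0.72 to 0.89, adjusted p up to 0.136) and Slc7a11 (0.64 to 0.82, adjusted p up to 0.135) lost theirs when any 1 of the KHR-N+/- tumours or KHR replicate 1, 2 or 3 was left out. With the muscle level as a term in the fit Gpx3 (1.26, adjusted p = 0.0563), Gsta3 (0.57, adjusted p = 0.29) and Slc7a11 (0.79, adjusted p = 0.0871) did not pass and Sod1 did, and with the authors' values only Gpx3 and Sod1 passed, and with median scaling only Gpx3. The part of muscle in these results was not tested further. Sat1, which acetylates polyamines, was higher by 0.72 (SE 0.12, adjusted p = 0.00401), and Ccng2, an unconventional cyclin, by 0.82 (SE 0.14, adjusted p = 0.00388).

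**Figure D3:**
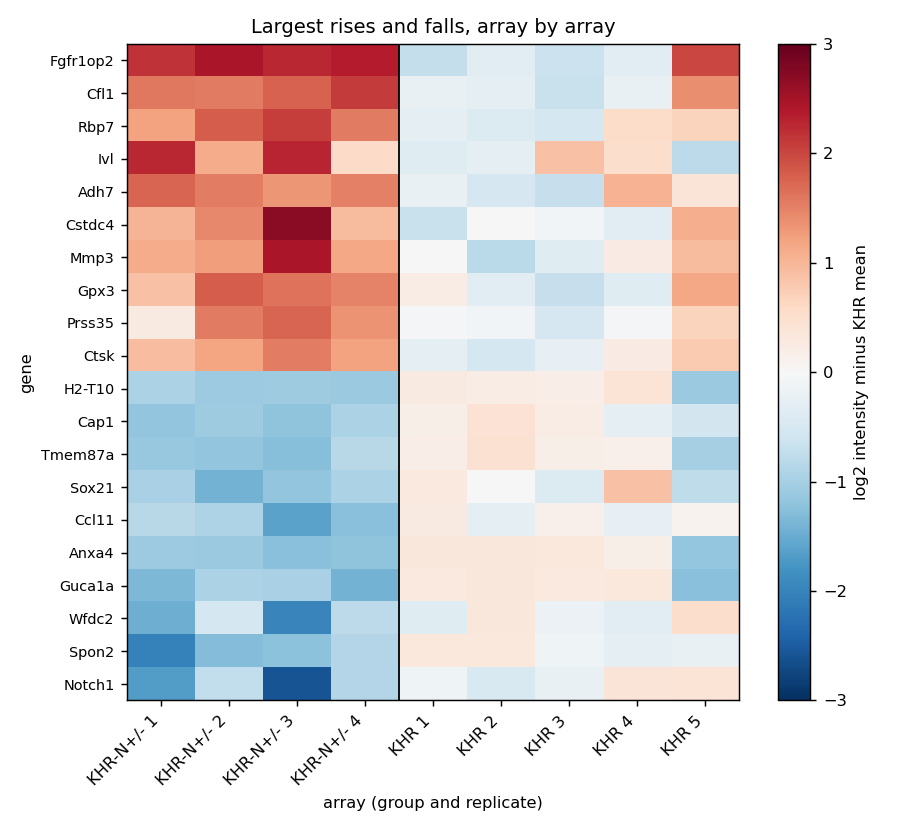
Log2 level minus the KHR mean (colour scale) of 20 named genes (rows) on the 4 KHR-N+/- and 5 KHR arrays (columns). KHR replicate 5 takes a colour near that of the KHR-N+/- arrays for Fgfr1op2, Cfl1, Tmem87a, Anxa4 and Guca1a.

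Of the skeletal muscle markers, 3 were higher in KHR-N+/- tumours. Atp2a1, the calcium pump of fast muscle, read 9.45, 10.11, 9.60 and 9.19 in KHR-N+/- tumours, against 8.84, 8.01, 8.20, 8.72 and 8.54 in KHR tumours. No value of one group lay within the other, and the log2 difference was 1.13 (SE 0.26, adjusted p = 0.0303). The titin gene Ttn differed by 0.95 (adjusted p = 0.0465) and the myosin Myh1 by 0.93 (adjusted p = 0.0327), while a second Myh1 probe gave -0.02. Of 26 measured muscle markers (29 listed) these 3 were higher and none lower, with a median of 0.40. Myoz2, a protein of the muscle Z-disc outside that list, was higher by 1.03 (SE 0.17, adjusted p = 0.00388). The mean level of the list was 6.80 to 7.22 in KHR-N+/- tumours, 7.07 to 7.44 in KHR-N-/- tumours and 6.34 to 6.82 in KHR tumours. With the authors' values none of the 26 passed, and with median scaling only Atp2a1 did. With the muscle level as a term in the fit 55 genes passed in place of 122. Without KHR-N+/- replicate 3 none of the 26 muscle markers passed. Atp2a1 (0.95 to 1.18, adjusted p up to 0.131) also did not pass without KHR-N+/- replicate 1 or 2, or without KHR replicate 2 or 3, while Myh1 (0.74 to 0.99, adjusted p up to 0.164) lost its call on leaving out any 1 of these or KHR replicate 1. Ttn (0.83 to 1.02, adjusted p up to 0.187) passed only in the fit that left out KHR replicate 5.

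Stromal and other cell markers gave few calls. Pdgfra, a growth factor receptor of fibroblasts, was higher by 0.75 (SE 0.19, adjusted p = 0.0435). Spon2, a secreted matrix protein, read 6.51, 7.24, 7.31 and 7.67 in KHR-N+/- tumours, against 8.85, 8.85, 8.42, 8.27 and 8.33 in KHR tumours. All KHR-N+/- tumours lay below all KHR tumours, and Spon2 was lower, at -1.36 (SE 0.25, adjusted p = 0.0066). Of 23 measured fibroblast and matrix genes, 1 was higher and 1 lower, with a median of 0.31. Without KHR replicate 5, 6 were higher, with the collagens Col1a2, Col5a1 and Col6a1, the collagen cross-linking enzyme Lox and the fibulin Fbln2 beside Pdgfra, and without KHR-N+/- replicate 3 none was higher. The mean level of that list was 6.46 to 7.15 in KHR-N+/- tumours, 7.36 to 8.01 in KHR-N-/- tumours and 6.39 to 7.32 in KHR tumours. None of the measured markers passed for endothelium (13), macrophages (12), mast cells (8), T cells (8), neutrophils (9), nerve (5), melanocytes (3), dendritic cells (2), salivary gland (2) or B cells (1). Without KHR replicate 5, Vwf of endothelium and Retnlg of neutrophils passed as higher. Plin4, a lipid droplet protein, was the only one of 9 adipocyte and sebaceous markers to pass, at 0.72 (adjusted p = 0.037). It was detected in only 2 of 5 KHR tumours, and the KHR values of 4.38 to 4.62 lay near background. Without KHR replicate 4, Cidea and Lpl passed beside Plin4. Neither Pdgfra (0.65 to 0.75, adjusted p up to 0.190) nor Plin4 (0.59 to 0.77, adjusted p up to 0.180) passed without KHR replicate 1, 2 or 3 or KHR-N+/- replicate 2, 3 or 4, nor did either with the authors' values, median scaling or the muscle level as a term. Spon2 did not pass with median scaling (-0.96, adjusted p = 0.341).

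**Figure D4:**
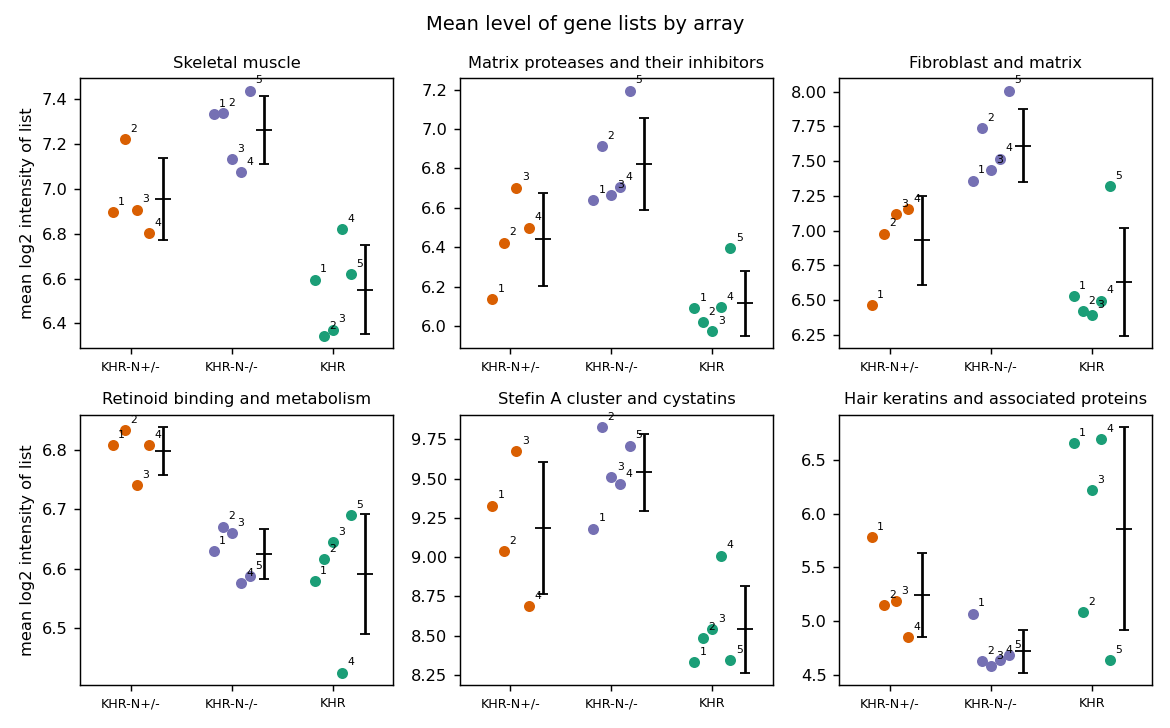
Mean normalized log2 level (y axis) of 6 gene lists in KHR-N+/-, KHR-N-/- and KHR tumours, one point per array numbered by replicate, with mean and SD bars. Skeletal muscle lies between 6.80 and 7.22 in KHR-N+/- tumours, against 6.34 to 6.82 in KHR tumours.

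The lists of chemokines and interleukins, of epithelial transcription factors and of kallikreins and serine protease inhibitors gave 1 call each. Genes outside the lists are not counted here. Of those, Atf4 (1.14, limma adjusted p = 0.00969) and Ntrk2 (-0.85, limma adjusted p = 0.0066) passed, also in all 9 fits that left out 1 array. Ccl11, the eosinophil-attracting chemokine eotaxin, read 5.67, 5.59, 4.90 and 5.26 in KHR-N+/- tumours, against 6.77, 6.25, 6.66, 6.26 and 6.62 in KHR tumours. The KHR-N+/- tumours lay below all KHR tumours, and the log2 difference was -1.16 (SE 0.18, adjusted p = 0.00383). A second Ccl11 probe gave -0.70 and did not pass (limma adjusted p = 0.098). Ccl11 was the only one of 31 measured chemokines and interleukins to pass, though Cxcl2 passed as higher without KHR replicate 5. Sox21, a transcription factor of hair and tooth epithelium, was lower too, with a log2 difference of -1.13 (SE 0.24, adjusted p = 0.0153), the only one of 19 epithelial transcription factors to pass. A second Sox21 probe gave -0.33 and did not pass (limma adjusted p = 0.475). Without KHR replicate 4, Foxe1 of that list passed as lower beside Sox21. Wfdc2, a whey acidic protein family inhibitor of secretory epithelia, read 7.32, 8.25, 6.81 and 8.01 in KHR-N+/- tumours, against 8.43, 9.12, 8.61, 8.46 and 9.31 in KHR tumours. The KHR-N+/- tumours again lay below all KHR tumours, and it was the only one of 18 measured kallikreins and serine protease inhibitors to pass, at -1.19 (SE 0.30, adjusted p = 0.0462). A second Wfdc2 probe gave -0.45 and did not pass (limma adjusted p = 0.387). Sox21 did not pass without KHR replicate 1 or KHR-N+/- replicate 2 or 3 (-1.12 to -1.04, adjusted p up to 0.0768), nor Wfdc2 without KHR replicate 1, 2, 3 or 5 or KHR-N+/- replicate 1 or 3 (-1.28 to -0.93, adjusted p up to 0.243). Wfdc2 also did not pass with the authors' values or the muscle level as a term, and with median scaling none of Ccl11, Sox21 and Wfdc2 did.

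The circadian and metabolic lists each had 1 gene. Noct, nocturnin, a clock-controlled phosphatase, read 9.28, 9.06, 8.62 and 8.69 in KHR-N+/- tumours, 8.33, 8.07, 7.90, 8.41 and 8.03 in KHR-N-/- tumours, and 7.96, 8.28, 8.33, 7.75 and 8.25 in KHR tumours. It was the highest in the 4 KHR-N+/- tumours, while the KHR-N-/- and KHR tumours lay in one range. The log2 difference of KHR-N+/- from KHR was 0.80 (SE 0.15, adjusted p = 0.00822), and that of KHR-N-/- from KHR was 0.03 (adjusted p = 0.941), while the test of KHR-N-/- against KHR-N+/- gave an adjusted p of 0.0487. A second Noct probe gave -0.08 for KHR-N+/- against KHR. Of 15 measured clock genes Noct alone passed. Hk2, hexokinase 2, the first enzyme of glycolysis, was higher by 0.70 (SE 0.16, adjusted p = 0.0315), the only one of 17 hypoxia and glycolysis genes, and did not pass without KHR replicate 1 or 2 or KHR-N+/- replicate 1, 3 or 4 (0.60 to 0.73, adjusted p up to 0.159), nor with the authors' values or the muscle level as a term. With median scaling neither Noct nor Hk2 passed. Outside the Wnt list, Kremen2 (0.86, limma adjusted p = 0.0127) and Ctnnbip1 (0.61, limma adjusted p = 0.035) were higher. Of the 9 fits that left out 1 array, Kremen2 lost its call in 1 and Ctnnbip1 in 7. No measured list gene passed for DNA replication and G1/S (24), mitosis (15), p53 targets (21), Wnt signalling (23) or TGF-beta and BMP signalling (18). The same held for the lists of interferon response (14), antigen presentation (16), Ras-ERK output (14) and EGF receptors and ligands (6). It also held for epithelial-mesenchymal transition (17) and CDK inhibitors and D cyclins (11). Without KHR replicate 5, Mcm6, Cdkn2a and Zmat3 passed as higher and Esrp1 as lower, and without KHR replicate 4, Per2 and Polk passed as higher and Fst as lower. In all, 16 of the 43 lists held a gene that passed, and 24 of 597 genes in the lists did (4.02%, against 1.25% of all genes tested), but the lists were chosen with earlier results of these data known, so that share supports nothing.

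Several of the named genes shared a pattern in which a KHR tumour sat with the KHR-N+/- tumours. Fgfr1op2, a partner of a fibroblast growth factor receptor fusion, read 7.44, 7.72, 7.53 and 7.62 in KHR-N+/- tumours, against 4.55, 4.95, 4.63, 4.94 and 7.28 in KHR tumours. In KHR-N-/- tumours it read 7.55, 7.67, 7.66, 7.33 and 7.51. KHR replicate 5 was close to the lowest KHR-N+/- tumour, and the other 4 KHR tumours were far lower. The log2 difference was 2.31 (SE 0.34, adjusted p = 0.00297), and a second Fgfr1op2 probe gave 0.20. Cfl1, the actin-severing protein cofilin, read 7.83, 7.79, 8.00 and 8.34 in KHR-N+/- tumours, against 6.02, 5.94, 5.58, 6.01 and 7.64 in KHR tumours. The log2 difference was 1.75 (SE 0.27, adjusted p = 0.00354), and it was the only one of 21 actin cytoskeleton genes to pass. Among genes lower in KHR-N+/- tumours, Anxa4, a calcium-dependent phospholipid-binding protein, read 5.51, 5.50, 5.34 and 5.40 in KHR-N+/- tumours, against 6.94, 6.94, 6.92, 6.77 and 5.45 in KHR tumours. Its log2 difference was -1.17 (SE 0.21, adjusted p = 0.0066). Guca1a, a guanylate cyclase activator known from photoreceptors (-1.17, adjusted p = 0.014), H2-T10, a non-classical MHC class I gene (at least 1.92-fold lower, adjusted p = 0.0067, detected in 0 of 4 KHR-N+/- tumours), and Tmem87a, a membrane protein (-1.10, adjusted p = 0.0066), had KHR replicate 5 among or next to the KHR-N+/- values in the same way. Over the 122 genes, KHR replicate 5 alone lay inside the KHR-N+/- range for 22, KHR replicate 4 alone for 8 and KHR replicate 3 alone for 1, and over all 9732 genes tested these counts were 265, 175 and 135. With KHR replicates 4 and 5 left out, 475 genes passed. Other named genes showed no overlap between the groups: Cap1, an actin regulator (-1.10, SE 0.17, adjusted p = 0.00354), Adat2, a subunit of a tRNA-editing deaminase (-0.88, SE 0.15, adjusted p = 0.00433), Cbwd1 (0.88, SE 0.14, adjusted p = 0.00388) and Insig2, a brake on sterol synthesis (0.71, SE 0.13, adjusted p = 0.00575, with 0.22 from a second probe).

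**Figure D5:**
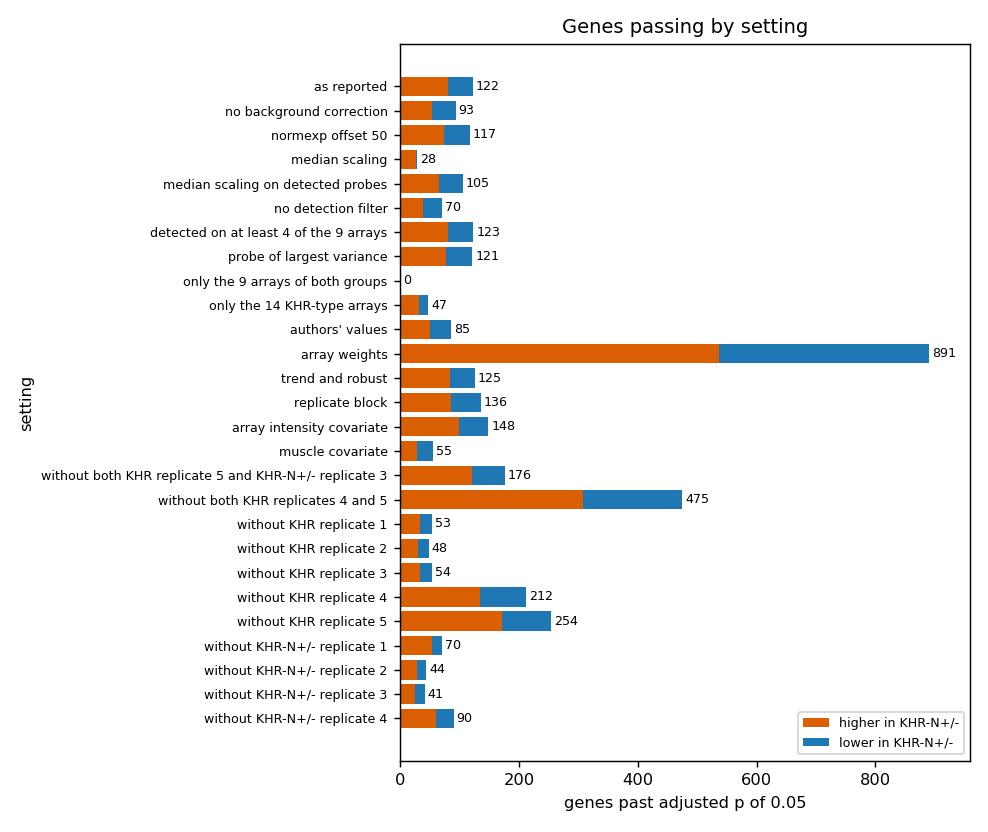
Number of genes (axis) that pass an adjusted p of 0.05 under each processing setting, split into higher and lower in KHR-N+/- tumours. The count is 122 as reported, 0 with the 9 arrays alone and 891 with array weights.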

How the data were processed

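RNA of 23 oral tumours was measured on the Illumina MouseRef-8 v2 array. The report compares the 4 KHR-N+/- and 5 KHR arrays, with 5 KHR-N-/- arrays for levels. The KR-N+/- and KR-N-/- arrays entered the normalization, the detection filter, the choice of probe and the shared spread. The submitters' processing notes name GenomeStudio and Partek, without versions. The deposited scanner table holds a mean bead intensity, a bead count and a detection p-value for each of 25697 probes and each array, per the file headers, and its intensity is not normalized. The authors' own processed intensity, in the deposited series table, served as an alternative after a floor of 16 and log2; its column medians lay between 4.44 and 4.55, 26.6% of values were below 0, and how it was scaled and centred is unknown. The 23 columns of bead standard errors were left out.

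Intensities were background-corrected with normexp on the detection p-values (offset 16), quantile-normalized and log2-transformed in limma 3.58.1 under R 4.3.3. A probe needed a detection p under 0.05 on 4 or more arrays; 13831 met this and 13030 of those carried a symbol. Each of the 9732 genes was read from its brightest probe. Symbols came from the platform annotation, where 23978 probes have 1 symbol, 0 have several and 1719 have none, and 23962 matched RefSeq by Entrez ID. A model of the 5 group means was fitted on all 23 arrays (18 residual degrees of freedom), and Benjamini-Hochberg adjustment ran over all genes with a threshold of 0.05. The script was tested on simulated data. The named genes that passed follow a rule, apart from those given for a background limit or as further calls outside a list. The rule takes Notch1, the 10 largest rises and 10 largest falls among genes that passed, and the 6 smallest adjusted p. It also takes up to 10 that passed under most alternatives, and list genes that passed. Genes that did not pass, such as Mmp13, Mmp9, Krt4, Krt76 and Csta2, are given as values and lie outside this rule. So do genes that passed only when an array was left out. The members and the 43 gene lists were chosen with earlier results of these data known. The lists do not hold every gene of a kind, and many passing genes outside them are not described. Gpnmb (0.94, limma adjusted p = 0.0303), Mgst1 (0.85, limma adjusted p = 0.037) and Mybpc1 (0.81, limma adjusted p = 0.0415) are examples. The number of arrays limits the precision. Alternatives changed the background correction, the normalization, the filter, the probe for a gene, the arrays in the fit, the covariates and the table of values, and left out each array in turn.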

Additional observations from a re-analysis of the deposited data

Results flagged for a closer look

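Of 72 groups of arrays examined for the 36 named genes, 7 held an array far from the others of its group by Dixon's ratio of gap to range. That rule marks about 1 in 20 groups by chance if they are independent and unselected. The named genes were picked from the same data and share arrays, so the rate is no benchmark here. Of the 7 flags, 6 concern KHR replicate 5. Fgfr1op2 read 7.28 there, against 4.55 to 4.95 in the other KHR tumours, and Cfl1 read 7.64, against 5.58 to 6.02. H2-T10 read 4.26, against 5.56 to 5.79, and Tmem87a read 5.30, against 6.45 to 6.75. Anxa4 read 5.45, against 6.77 to 6.94, and Guca1a read 4.87, against 6.42 to 6.47. In KHR-N+/- replicate 3, Mmp3 read 8.63, against 7.31 to 7.45 in the other KHR-N+/- tumours.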

How the results depend on the processing

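The count of 122 genes moved to 28 with median scaling on all probes (26 higher, 2 lower, where the median of all genes lay at 0.29), to 70 without the detection filter, to 0 with the 9 arrays alone, to 47 with the 14 KHR-type arrays, to 891 with array weights and to 55 with the muscle level as a term. Leaving out 1 array gave 41 to 254 genes: 53, 48, 54, 212 and 254 without KHR replicates 1 to 5, and 70, 44, 41 and 90 without KHR-N+/- replicates 1 to 4. Leaving out KHR replicates 4 and 5 together, chosen after seeing the data, gave 475. With no background correction 93 passed, with the authors' values 85 and with median scaling on detected probes, also chosen after seeing the data, 105. With the replicate number as a block, 136 genes passed and Notch1 stood at -1.45, although the replicate numbers did not pair the tumours (correlations of same-numbered deviations of 0.0811, -0.0709, -0.0994 and -0.256 for replicates 1 to 4). Notch1 stayed below 0 under every alternative run, but did not pass with the 9 arrays alone (-1.47, adjusted p = 0.216) or with median scaling (-1.10, adjusted p = 0.184). Its value on leaving out 1 array ran from -1.71 to -1.09. Among the planned and added settings no single named gene changed direction, but a second probe, set aside under each of them, gave the opposite sign for Noct (-0.08, against 0.80) and Myh1 (-0.02, against 0.93). Of the values of the named genes, 667 values kept their side of the threshold and 243 no longer passed. The cause of these moves was not tested.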

Other observations

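Some genes were not well above background in one group, so only a bound can be given, with the brighter group's mean set against the dim group's mean of, per array, the higher of the lowest detected signal and the probe's own. Chodl was at least 1.78-fold higher (limma adjusted p = 0.0365) and Smc1b at least 1.46-fold higher (adjusted p = 0.00575) in KHR-N+/- tumours. H2-T10 was at least 1.92-fold lower (adjusted p = 0.0067), Hbb-b2 at least 1.68-fold lower (adjusted p = 0.0315) and Trappc12 at least 1.51-fold lower (adjusted p = 0.0279) in KHR-N+/- tumours. Nr1h5 (at least 1.45-fold, adjusted p = 0.021) and Tlr6 (at least 1.27-fold, adjusted p = 0.0315) were lower too. Of the 9 fits that left out 1 array, Chodl, Hbb-b2 and Nr1h5 lost their call in 6, and Trappc12 and Tlr6 in 7. Smc1b and H2-T10 passed in all 9. None of these genes was detected in any tumour of its dim group, so each met the detection filter through other arrays. All but H2-T10 lie outside the naming rule and were chosen for this background limit.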
